A study of Homo sapiens with 12 samples.

Results

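Small RNA profiles of A375-BIR melanoma cells exposed to dabrafenib were compared with those of A375 cells in vehicle, using 6 of the 12 small RNA-seq libraries of the series. The 6 were taken by their cell line and treatment labels, 3 libraries from each group, with no measured value used in the choice. A375 is an established human melanoma line with an activating BRAF mutation, and dabrafenib inhibits the mutant BRAF kinase. A375-BIR descends from it and tolerates such inhibitors, and the resistant state is thus represented by 1 line. A375-BIR received 200 nM dabrafenib and A375 received 0.1% DMSO, both for 48 h, and both lines grew in RPMI with serum. The comparison asks how resistant cells in the presence of the drug they tolerate differ from parental cells that never met it. Line and treatment differ together here, and their parts cannot be told apart within these 6 libraries. The labels call the 3 libraries of each group biological replicates.

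Each library held expected counts for 1881 annotated miRNA precursors, of which 697 had at least 1 count in some of the 6 libraries. Totals in A375 in DMSO were 77264, 121802 and 86898 counts for replicates 1 to 3. In A375-BIR in dabrafenib they were 35070, 59899 and 47607 counts, below every A375 library. A precursor was tested when its counts passed an expression filter across the 4 groups of the series, and 175 passed. Levels are given as CPM, the counts of the tested precursors scaled to a common library size after TMM, and fold changes are of A375-BIR in dabrafenib over A375 in DMSO. A floor of 3 counts equals 22.8 to 35.9 CPM in the A375 libraries and 45.1 to 81.9 CPM in the A375-BIR libraries, and floors and intervals cover counting error only.

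A miRNA is cut from a hairpin precursor, and its seed, bases 2 to 8 of the mature strand, pairs with sites in messenger RNAs and lowers their output. miRNAs that carry the same seed form a family with largely shared targets, even when their genes lie on different chromosomes and are transcribed separately. In melanoma, miRNAs have been studied as regulators of pigment-lineage genes, of cell-cycle inhibitors and of the inflammatory signalling that tumour cells can use, and BRAF inhibitors act on the MAPK pathway that feeds all of these.

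The mature strands below belong to the miRNAs on which the results turn, with the seed in capitals. They come from RefSeq (GRCh38.p14), in which 154 of the 175 tested precursors had a mature sequence. The deposited counts are per precursor and do not tell the 5p and 3p strands apart, so the strand shown is the one usually described as the guide. The miR-146 strands are shown because they share a seed while their precursors went in opposite directions.
hsa-miR-146a-5p: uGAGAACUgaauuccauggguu
hsa-miR-146b-5p: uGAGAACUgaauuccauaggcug
The let-7 strands share the seed of the most abundant family in these cells, in which some precursors were higher and others lower.
hsa-let-7c-5p: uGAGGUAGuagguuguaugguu
hsa-let-7a-5p: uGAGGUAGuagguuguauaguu
hsa-let-7b-5p: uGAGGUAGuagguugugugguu
hsa-let-7i-5p: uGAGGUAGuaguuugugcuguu
The miR-30 strands are shown for the members that were higher in A375-BIR in dabrafenib.
hsa-miR-30a-5p: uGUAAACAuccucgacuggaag
hsa-miR-30c-5p: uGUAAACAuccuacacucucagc
hsa-miR-30e-5p: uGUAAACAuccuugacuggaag
The next pair shares a seed and a host transcript.
hsa-miR-221-3p: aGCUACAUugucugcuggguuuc
hsa-miR-222-3p: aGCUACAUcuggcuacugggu
The remaining strands belong to other miRNAs described below, and no other sequence shown here carries their seeds.
hsa-miR-31-5p: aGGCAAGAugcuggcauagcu
hsa-miR-1269a: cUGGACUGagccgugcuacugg
hsa-miR-182-5p: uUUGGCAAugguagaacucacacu
hsa-miR-155-5p: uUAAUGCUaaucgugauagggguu
hsa-miR-204-5p: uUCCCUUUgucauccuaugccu
hsa-miR-509-3p: uGAUUGGUacgucuguggguag
hsa-miR-584-5p: uUAUGGUUugccugggacugag

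In A375-BIR in dabrafenib, miR-31, miR-146b, miR-30a, let-7c and the miR-183 cluster member miR-182 were 4.51 to 11.4 times as abundant as in A375 in DMSO. miR-146a, miR-155, miR-204 and miR-509, which A375 in DMSO expressed well above the floor, were 5.66 to 14.7 times less abundant. Of 17 precursors whose hairpins share sequence with ribosomal RNA 10 were tested, and 9 of these also rose. Some of the 9 passed the filter through the groups in dabrafenib. Of the 175 tested precursors, 56 rose (32%) and 31 fell (17.7%) at a false discovery rate (FDR) under 0.05, 87 in all (49.7%), and 98 had an unadjusted p under 0.05. Changes over 2-fold were found in 46 of those that rose and 18 of those that fell. The 3 libraries of A375-BIR did not overlap the 3 of A375 for 103 precursors (58.9%), among them 81 of the 87. The largest rises and falls described below were picked from these 81, so their lack of overlap was set by the choice.

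The median log2 fold change over all 175 precursors was 0.36. With DESeq2 size factors in place of TMM this median moved by -0.24, and the split became 41 higher and 40 lower, so that 50.6% of the calls were higher in place of 64.4%. The DESeq2 Wald test gave 45 higher and 39 lower. Values below are therefore read against the median of 0.36. For miRNAs named below, a call or direction in A375-BIR in dabrafenib over A375 in DMSO that depends on the scaling is marked. Other list members appear as counts. Calls of single miRNAs in the other comparisons of groups made below carry no such mark.

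**Figure D1:**
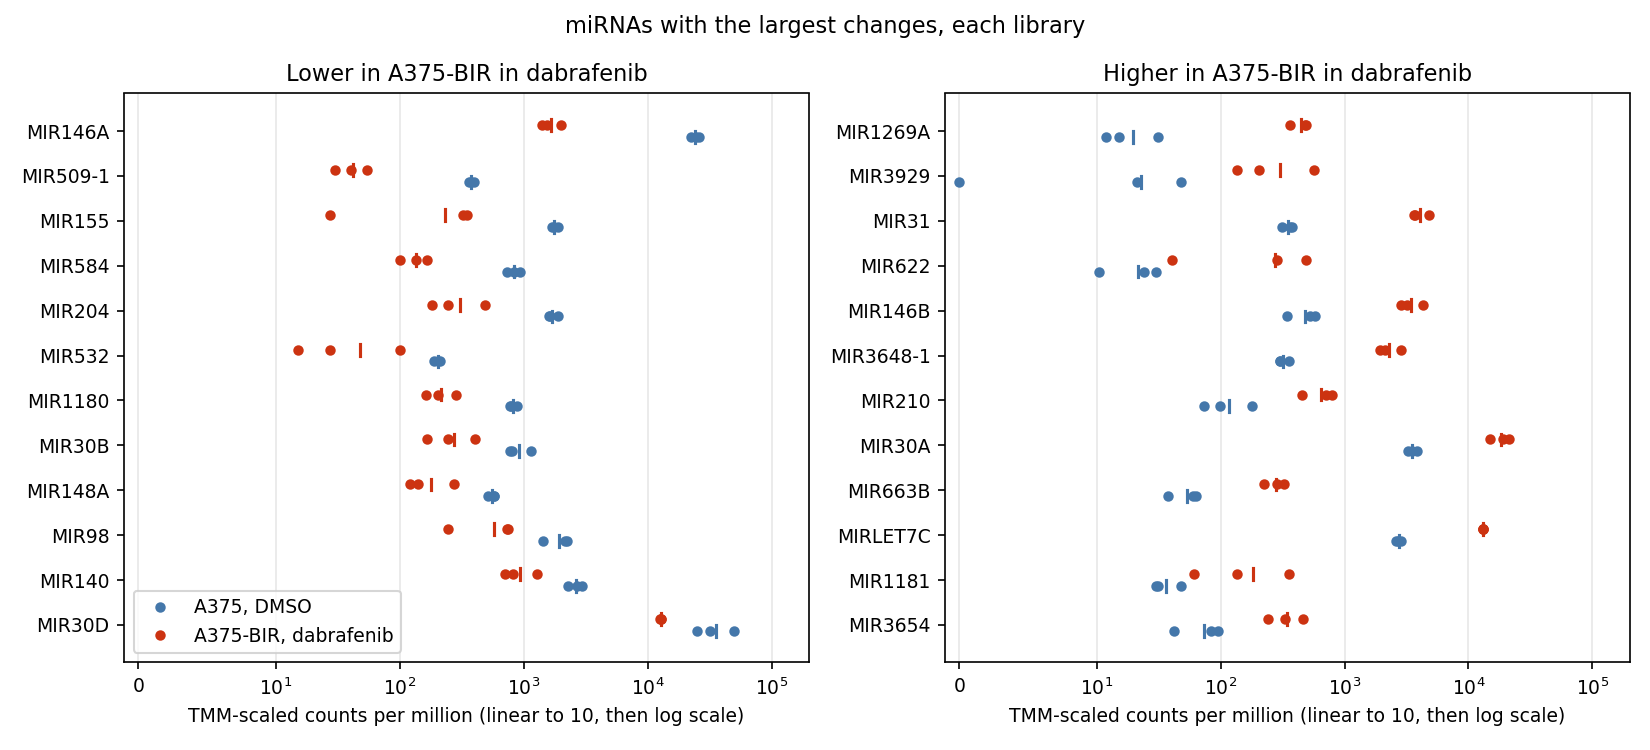
TMM-scaled CPM of the precursors with the largest falls (left) and rises (right), 1 point per library, with the mean of 3 libraries as a bar; the axis is linear to 10 and logarithmic above. The precursors drawn were chosen among those for which A375-BIR in dabrafenib (red) and A375 in DMSO (blue) do not overlap.

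The largest fall was in MIR146A (ENSG00000283733, chr5:160485352-160485450, plus strand, in the lncRNA gene MIR3142HG), which NF-kB induces and which in turn represses the signalling adaptors TRAF6 and IRAK1. Its level was 24735, 22209 and 25938 CPM in the A375 libraries. In A375-BIR in dabrafenib it was 1557, 1399 and 2002 CPM. Every A375-BIR library lay far below every A375 library. The log2 fold change was -3.88 (SE 0.22, n = 3 per group), a 14.7-fold fall with FDR = 6.53e-09.

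MIR155 (ENSG00000283904, chr21:25573980-25574044, plus strand, in MIR155HG), another NF-kB-responsive miRNA best known from activated lymphocytes and macrophages, was at 1688, 1746 and 1882 CPM in A375 in DMSO. The A375-BIR libraries had 27.3, 346 and 324 CPM, replicate 1 being at the equivalent of 1 count. The groups were separate, and the fall was 7.0-fold (log2 fold change -2.81, SE 0.40, FDR = 4.40e-05).

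The opposite held for MIR146B (ENSG00000202569, chr10:102436512-102436584, plus strand), which has the same seed as miR-146a and is also induced by inflammatory signals. A375 in DMSO had 575, 342 and 526 CPM, and A375-BIR in dabrafenib had 4315, 3204 and 2872 CPM. All 3 A375-BIR libraries were above all A375 libraries, with a 7.24-fold rise (log2 fold change 2.86, SE 0.29, FDR = 1.52e-06). The sum of MIR146A, MIR146B and MIR155 went from 26547 ± 2062 CPM to 5349 ± 493 CPM (mean ± SD, n = 3 each), 4.96 times lower, because MIR146A supplied most of it in A375. By count, 1 of these 3 precursors rose and 2 fell, under TMM, DESeq2 size factors and total counts alike, beside 32% higher and 17.7% lower over all 175.

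MIR204 (ENSG00000207935, chr9:70809975-70810084, minus strand, in TRPM3) belongs to the pigment lineage, as does its relative miR-211 from TRPM1. It was measured at 1892, 1610 and 1619 CPM in A375 in DMSO and at 246, 180 and 485 CPM in A375-BIR in dabrafenib. No A375-BIR library reached a level seen in A375. MIR204 fell 5.66-fold (log2 fold change -2.50, SE 0.35, FDR = 4.55e-05), and MIR211 was too scarce to be tested.

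The miR-506 to miR-514 cluster of the X chromosome, active in testis and in melanoma, is represented by miR-509. Of its 15 precursors 3 were tested, all of them miR-509 copies that passed the filter through their counts in A375, so their number says nothing of the cluster as a whole. The 3 were called lower under each scaling, with a median log2 fold change of -3.21 under TMM. MIR509-1 (ENSG00000208000, chrX:147260532-147260625, minus strand) was at 359, 395 and 379 CPM in A375 in DMSO. In A375-BIR in dabrafenib it was at 54.6, 30.1 and 40.5 CPM, at or under the floor in each library. Copies MIR509-1, MIR509-2 and MIR509-3 encode the same miR-509-3p, share reads in the deposited counts and stand for 1 observation. The drop was 9.23-fold for MIR509-1 (FDR = 3.23e-06). The cluster sum was 1305, 1352 and 1293 CPM in A375 and 191, 90.2 and 142 CPM in A375-BIR, and MIR507, MIR510, MIR514A1, MIR514A2, MIR514A3 and MIR514B had no count in any library of the series.

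MIR584 (ENSG00000207714, chr5:149062313-149062409, minus strand, in SH3TC2) was at 838, 737 and 936 CPM in A375 in DMSO and at 137, 165 and 101 CPM in A375-BIR in dabrafenib. The groups were far apart, with a 6.05-fold fall (log2 fold change -2.60, SE 0.26, FDR = 1.53e-06). Smaller falls of 3.61-fold in MIR1180 (FDR = 4.23e-05), 3.29-fold in MIR148A (FDR = 0.000490) and 2.80-fold in MIR140 (FDR = 0.000358) were also without overlap between groups. miR-148a, a repressor of DNA methyltransferases and of MITF in melanoma, was at 575, 516 and 578 CPM in A375 and at 273.1, 120 and 142 CPM in A375-BIR.

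MIR532 rested on few reads: 204, 213 and 189 CPM in A375 in DMSO against 27.3, 15 and 101 CPM in A375-BIR in dabrafenib. Only replicate 3 of A375-BIR was above its floor. The log2 fold change was -2.09 (FDR = 0.0137). Without A375-BIR in dabrafenib replicate 2 it was -1.53 and no longer called (FDR = 0.0864), and without replicate 3 it was -3.28, within FDRs of 0.000637 to 0.0864 over all alternatives.

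MIR31 (ENSG00000199177, chr9:21512115-21512185, minus strand, in MIR31HG) lies beside the CDKN2A locus and has been described as a promoter or a suppressor of tumour growth depending on the tissue. A375 in DMSO had 311, 364 and 379 CPM, and A375-BIR in dabrafenib had 3605, 4768 and 3722 CPM. The lowest A375-BIR library was thus well above the highest A375 library. miR-31 rose 11.4-fold (log2 fold change 3.51, SE 0.19), with the smallest FDR of the comparison among the miRNAs named here, 5.95e-09.

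MIR1269A (ENSG00000221563, chr4:66276824-66276928, plus strand) had the largest fold change. It was barely detected in A375 in DMSO, at 12, 15.2 and 31.5 CPM or 6 counts over 3 libraries. A375-BIR in dabrafenib had 492, 481 and 364 CPM from 68 counts. The fitted rise was 21.3-fold (log2 fold change 4.41, SE 0.42, FDR = 1.22e-06), from a starting level at or under the floor of each A375 library. MIR1269A passed the filter through its counts in A375-BIR, where it is high.

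MIR3929 and MIR622 were likewise close to the floor in A375 and passed the filter through their counts in A375-BIR. MIR3929 was at 47.9, 0 and 21.0 CPM in A375 in DMSO and at 137, 572 and 202 CPM in A375-BIR in dabrafenib. The groups were separate but uneven, with a log2 fold change of 3.93 (FDR = 0.00493) that was 3.03 without A375-BIR in dabrafenib replicate 2, 4.95 without A375 in DMSO replicate 1 and 3.20 without A375 in DMSO replicate 2. MIR622 was at 23.9, 30.4 and 10.5 CPM in A375 and at 492, 286 and 40.5 CPM in A375-BIR. Replicate 3 of A375-BIR was under its own floor, and the log2 fold change was 3.46 (SE 0.88, FDR = 0.00582).

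MIR182 (ENSG00000207990, chr7:129770383-129770492, minus strand), a repressor of FOXO3 and MITF, was at 1664, 1754 and 1766 CPM in A375 in DMSO. In A375-BIR in dabrafenib it was at 8603, 8589 and 6230 CPM. The rise was 4.51-fold with no overlap (FDR = 1.92e-07). The summed miR-183, miR-96 and miR-182 cluster went from 1748, 1769 and 1840 CPM to 8986, 8634 and 6472 CPM, almost all of it from MIR182. Of its 3 precursors 2 were tested and rose, beside 32% higher over all 175. MIR182 alone kept its call with DESeq2 size factors and with total counts alone. MIR183 had 16 counts over A375 in DMSO and passed the filter through its counts in A375-BIR, so the number that rose says little of the cluster. MIR183, at 83.8, 15.2 and 73.6 CPM against 382, 45.1 and 243 CPM, overlapped between groups (log2 fold change 1.90, FDR = 0.0458). That call was fragile: it was lost in the fit of the 6 libraries, with copies summed, and without A375-BIR in dabrafenib replicate 1 (1.31, FDR = 0.189) or replicate 3 (1.74, FDR = 0.125), without A375 in DMSO replicate 2 (1.36, FDR = 0.163) or replicate 3 (2.18, FDR = 0.0568), and on leaving out in turn each of 3 libraries of the other groups, over FDRs of 0.00719 to 0.189. Without A375-BIR in dabrafenib replicate 2 the log2 fold change was 2.49 and still called (FDR = 0.00719).

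MIR210 (ENSG00000199038, chr11:568089-568198, minus strand, in MIR210HG), the miRNA induced by hypoxia-inducible factors, was at 180, 98.7 and 73.6 CPM in A375 in DMSO and at 710, 451 and 789 CPM in A375-BIR in dabrafenib. The 2 sets did not meet, and miR-210 rose 5.54-fold (log2 fold change 2.47, SE 0.44, FDR = 0.000355). MIR3654, which lies inside CHCHD3, rose 4.52-fold from 95.8, 83.5 and 42.1 CPM to 464, 331 and 243 CPM (FDR = 0.00224). Its counts in A375-BIR carried it through the filter. MIR1181, inside CDC37, was at 47.9, 30.4 and 31.5 CPM against 355, 135 and 60.7 CPM (log2 fold change 2.21, FDR = 0.0189). That call was lost without A375-BIR in dabrafenib replicate 1 (1.48, FDR = 0.101), without A375 in DMSO replicate 2 (2.08, FDR = 0.0667) and without A375 in DMSO replicate 3 (2.14, FDR = 0.0502), and its FDR over all alternatives was 0.00259 to 0.101.

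The let-7 family, which represses RAS, HMGA2 and LIN28 transcripts and is counted among the tumour suppressors, made up a large part of the counts. Its 12 precursors, all tested, summed to 585090, 583217 and 562694 CPM in A375 in DMSO. In A375-BIR in dabrafenib the sum was 457361, 452322 and 503296 CPM, below A375 in every library. Within the family 7 precursors fell, 4 rose and 1 was not called, beside 17.7% and 32% over all 175, and 3 of the 4 that rose are let-7a copies that divide the same reads. Among the 7 that fell, MIRLET7F1 and MIRLET7F2 encode the same mature strand. The median log2 fold change was -0.64 beside 0.36 over all tested precursors. With DESeq2 size factors 7 still fell but 1 rose, and MIRLET7E, at 0.04, turned to -0.22.

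MIRLET7C (ENSG00000199030, chr21:16539828-16539911, plus strand, in MIR99AHG) was the member that rose under each scaling. Its level was 2718, 2855 and 2607 CPM in A375 in DMSO and 13028, 13161 and 12985 CPM in A375-BIR in dabrafenib. The replicates of each group lay close together and the groups far apart, a 4.79-fold rise (log2 fold change 2.26, SE 0.16, FDR = 7.84e-08). MIRLET7I, with MIRLET7B the most abundant precursor in A375 in DMSO, was at 189826, 190331 and 159843 CPM in A375 and at 62817, 63625 and 105886 CPM in A375-BIR. It fell 2.32-fold without overlap (FDR = 0.000378). MIRLET7B had 169987, 193216 and 173101 CPM against 115364, 109952 and 134324 CPM, a 1.49-fold fall (log2 fold change -0.58, FDR = 0.00582). In the fit of only the 6 libraries with a replicate block its log2 fold change was -0.60 and its call was lost (FDR = 0.0506, the highest over its alternatives, the lowest being 5.03e-05).

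MIR98 and MIRLET7F2 lie together inside HUWE1 on the X chromosome, and both fell, by log2 fold changes of -1.69 and -1.0. Other let-7 neighbours moved apart. MIRLET7A1 (chr9:94175957-94176036), MIRLET7F1 (chr9:94176347-94176433) and MIRLET7D (chr9:94178834-94178920) share the host MIRLET7A1HG, yet their log2 fold changes were 0.45, -0.98 and -1.06. On chromosome 22, MIRLET7A3 and MIRLET7B share MIRLET7BHG and had 0.44 and -0.58. The 3 let-7a copies encode the same mature strand and divide its reads in the deposited counts, and other let-7 strands are alike enough to share reads too. The call of the let-7a rise, from 58534, 50690 and 60423 CPM to 78330, 78831 and 73847 CPM for MIRLET7A1 (FDR = 0.00334), was lost with DESeq2 size factors (0.19), the DESeq2 Wald test (0.19), either of the looser filters (0.26 and 0.28) and the 6-library fit with a replicate block (0.43), with FDRs from 0.00246 to 0.417 over its alternatives. MIRLET7D, MIRLET7E, MIRLET7F1 and MIRLET7F2 were chosen for naming after their values were seen.

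In the miR-30 family, whose members act on differentiation and autophagy genes, all 6 precursors were tested, 4 rose and 2 fell, the same under each scaling, beside 32% and 17.7% over all 175. The family median was 1.32. MIR30A (ENSG00000207827, chr6:71403551-71403621, minus strand, in LINC00472) was at 3496, 3827 and 3259 CPM in A375 in DMSO and at 14967, 18982 and 21056 CPM in A375-BIR in dabrafenib. Every A375-BIR library was above every A375 library, with a 5.20-fold rise (log2 fold change 2.38, SE 0.19, FDR = 2.43e-07). Its neighbour MIR30C2, in the same host, had a log2 fold change of 1.60. MIR30E and MIR30C1, both inside NFYC on chromosome 1, had 1.18 and 1.46. MIR30C1, MIR30C2 and MIR30E were named after their values were seen, and MIR30C1 and MIR30C2 encode the same mature strand.

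MIR30D carried most of the family in A375, with 32111, 49521 and 24960 CPM in DMSO, against 12782, 12936 and 12520 CPM in A375-BIR in dabrafenib. It fell 2.79-fold (FDR = 3.81e-05), and MIR30B fell 3.38-fold from 1137, 812 and 778 CPM to 246, 165 and 405 CPM (FDR = 0.000165). Both falls were free of overlap. Rises and falls nearly balanced in the family sum, which was 38492, 56058 and 31289 CPM in A375 and 33020, 36881 and 40514 CPM in A375-BIR, so the groups overlapped in total while the leading member changed from MIR30D to MIR30A.

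**Figure D2:**
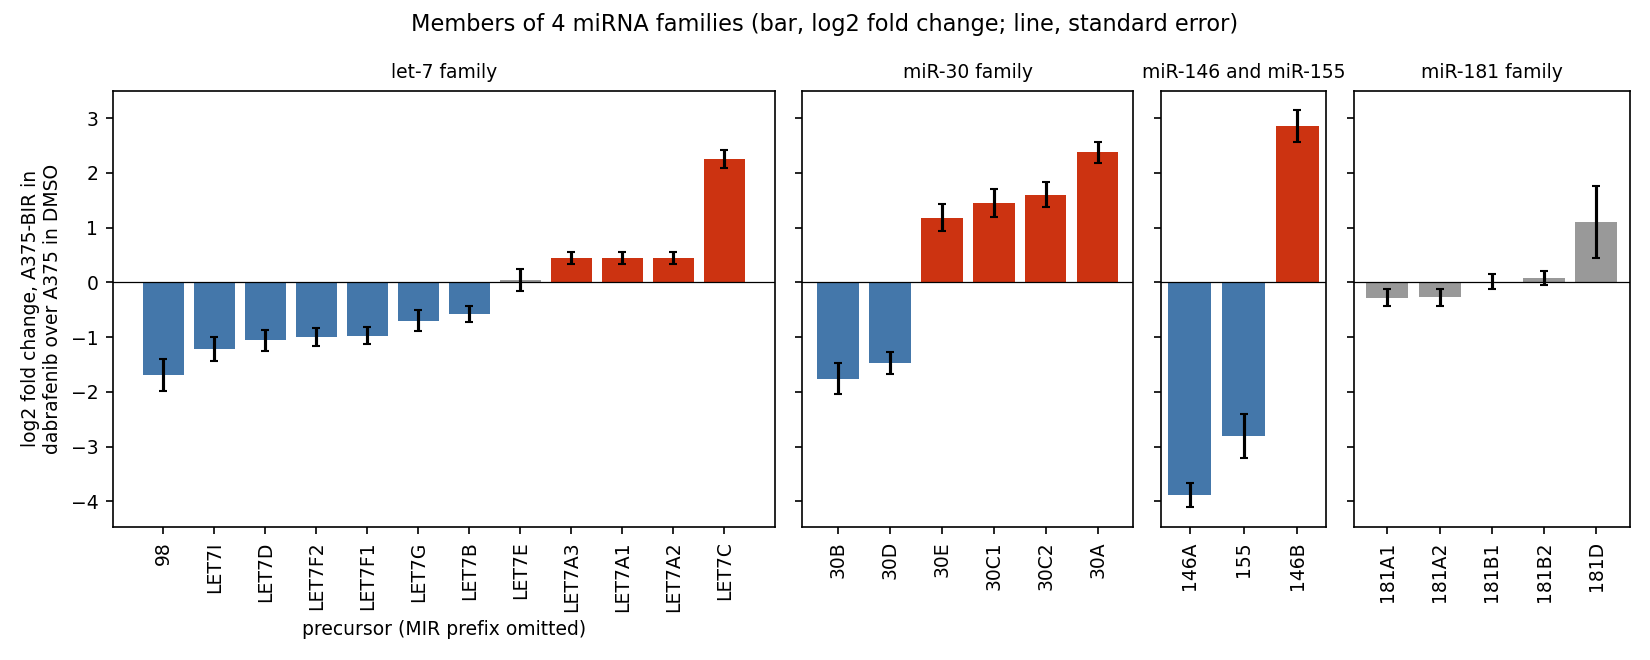
Log2 fold change of A375-BIR in dabrafenib over A375 in DMSO for each tested precursor of 4 families, bars coloured by call (red higher, blue lower, grey not called) with standard errors as lines. The let-7, miR-30 and miR-146 families hold members of both directions, and with DESeq2 size factors the 3 let-7a bars lose their call, MIRLET7E and both MIR181B bars turn to negative and the MIR181A bars are called lower.

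The miR-181 family, which the study follows, was somewhat lower in sum. It went from 63898, 57228 and 55797 CPM in A375 in DMSO to 53859, 55487 and 46278 CPM in A375-BIR in dabrafenib. Every A375-BIR library was below every A375 library, replicate 2 of A375-BIR only narrowly. Of 6 precursors 5 were tested and none was called by edgeR with TMM, beside 49.7% called in either direction over all 175. The median log2 fold change of the family was 0.01, which is the value of MIR181B1. MIR181A1 and MIR181A2 encode the same miR-181a-5p. MIR181A1 was at 24867, 21776 and 20818 CPM in A375 in DMSO and at 19501, 20757 and 15129 CPM in A375-BIR in dabrafenib. These A375-BIR libraries were the lower ones, by a log2 fold change of -0.28 (SE 0.16, FDR = 0.144). Relative to the median of 0.36 the difference was larger, and with DESeq2 size factors MIR181A1 (-0.55) and MIR181A2 (-0.54) were called lower (FDR = 0.0251 for both), as they were by the DESeq2 Wald test (FDR = 0.00533). FDRs over all alternatives were 0.00533 to 0.401 for MIR181A1. MIR181B1, with 6585, 6613 and 6477 CPM against 6446, 6197 and 7241 CPM, had a log2 fold change of 0.01, overlapped between groups and turned sign under DESeq2 size factors and total counts alone. In the crossed pair MIR181B1 was lower by -0.97 (FDR = 2.66e-05) and MIR181B2 by -0.85 (FDR = 7.25e-05).

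miR-221 and miR-222 come from 1 host transcript, MIR222HG, and repress the cell-cycle inhibitor p27 and KIT. MIR222 (ENSG00000207725, chrX:45747015-45747124, minus strand) was at 4597, 4396 and 4595 CPM in A375 in DMSO and at 13219, 12484 and 9587 CPM in A375-BIR in dabrafenib. Of the 2 precursors it was the 1 that rose (median of the list 0.84), beside 32% higher over all 175. Its rise was 2.60-fold with no overlap (log2 fold change 1.38, SE 0.15, FDR = 2.41e-06). MIR221 was not called: 22042, 22612 and 19608 CPM against 21030, 27089 and 31250 CPM overlapped, with a log2 fold change of 0.31 (FDR = 0.189).

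List counts here and below are small and stand beside 32% higher and 17.7% lower over all 175 precursors. The miR-99, miR-100 and miR-125 list overlaps in position with let-7c and let-7a. Of its 6 precursors 5 were tested and 4 rose (3 with DESeq2 size factors), with a median of 1.14. MIR100, in MIR100HG with MIRLET7A2 and MIR125B1, was at 2550, 1989 and 2397 CPM in A375 in DMSO and at 7702, 6347 and 4389 CPM in A375-BIR in dabrafenib, a 2.66-fold rise (FDR = 0.000867). MIR125B2, which shares MIR99AHG with MIRLET7C, rose 2.57-fold (FDR = 0.000323) and MIR125B1 2.21-fold (FDR = 0.000378), both without overlap and both named after their values were seen.

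Among the miRNAs of the HOX clusters, all 5 precursors were tested, 3 rose and none fell, with a median of 0.95; with DESeq2 size factors MIR196A2 turned sign without a call in either case. MIR196B, inside HOXA9, was at 108, 83.5 and 73.6 CPM in A375 in DMSO and at 464, 331 and 405 CPM in A375-BIR in dabrafenib. It rose 4.44-fold (FDR = 0.000138). MIR196B passed the filter through its counts in A375-BIR, so the number that rose rests partly on the filter. MIR196A1 and MIR196A2, neither of them called, encode the same mature strand. MIR10B, by HOXD3, rose 1.93-fold from 1317, 1655 and 1672 CPM to 2868, 3114 and 3014 CPM (FDR = 0.000697), and MIR10A, by HOXB3 and named after its values were seen, rose 2.23-fold (FDR = 0.000179).

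In the miR-15, miR-16 and miR-424 family, which represses cyclins and BCL2, 4 of 8 precursors were tested and 3 rose, but 1 with DESeq2 size factors, with a median of 1.02. MIR424 had 28 counts over A375 in DMSO and passed the filter through its counts in A375-BIR. The tested miR-16 copies encode the same mature strand, so the number that rose says little of the family. MIR15B (log2 fold change 0.82, FDR = 0.0375) lost its call under 14 of 23 alternatives, among them both looser filters, the replicate block, the 6-library fit, copies summed, leaving out A375-BIR in dabrafenib replicate 2 (0.90, FDR = 0.0602) or replicate 3 (0.54, FDR = 0.1997), and leaving out A375 in DMSO replicate 1 (0.86, FDR = 0.0608), replicate 2 (0.83, FDR = 0.0861) or replicate 3 (0.78, FDR = 0.0959), over FDRs of 0.0203 to 0.389. MIR424, the member called under each scaling, was at 83.8, 106 and 73.6 CPM in A375 in DMSO and at 273.1, 271 and 283 CPM in A375-BIR in dabrafenib, a 3.05-fold rise (FDR = 0.00163). MIR34A, a p53 target and the 1 tested of 3 miR-34 precursors, was at 431, 243 and 347 CPM against 382, 902 and 809 CPM. These groups overlapped through replicate 1 of each, and the rise of 2.14-fold (FDR = 0.0125) was not called with DESeq2 size factors (log2 fold change 0.85) or the DESeq2 Wald test (0.83), without A375-BIR in dabrafenib replicate 2 (0.86) or without A375 in DMSO replicate 2 (0.88), FDRs over all alternatives running from 0.00274 to 0.0803.

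MIR29A was the member called of 2 tested in the miR-29 family, which targets collagen transcripts, and rose 2.89-fold from 239, 159 and 158 CPM to 382, 451 and 748 CPM (FDR = 0.00110), the list median being 0.89; MIR29B1 turned sign without a call with DESeq2 size factors. In the miR-23, miR-24 and miR-27 clusters 2 of 5 tested precursors rose, close to the 32% of all 175 that did so, and none fell (median 1.12), among them MIR27B, 2.20-fold (FDR = 0.000726). The miR-17-92 cluster and its paralogs, which MYC induces, had 1 rise, that of MIR25, among 9 tested precursors (median 0.55). MIR25 lost its call with DESeq2 size factors, under which MIR18A and MIR92A1 turned sign; these 3 and MIR196A2 were named after their values were seen. In the miR-26 family none of 3 was called (median 0.28), in the miR-148 and miR-152 family 1 of 3 fell (median 0.68), and in the miR-320 family 1 of 3 fell (median -0.31). None of the 3 tested miR-199 precursors was called (median -0.95), and none of the 3 miR-103 and miR-107 precursors passed the filter.

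Some precursors in the annotation resemble ribosomal RNA. The hairpins of 17 of the 1881 have an unbroken match of 18 or more bases to the 45S pre-ribosomal RNA, and 10 of these were tested. In A375-BIR in dabrafenib 9 of the 10 rose (32% over all 175) and none fell, with a median log2 fold change of 1.90 beside 0.36 over all tested precursors. MIR663B, MIR7704 and MIR4508 had 15.55, 16.45 and 22.4 counts over A375 in DMSO, and 41.27, 28.44 and 30.6 over A375-BIR in dabrafenib. They passed the filter through the groups in dabrafenib, so the number that rose and the median rest partly on the filter. The 10 are not 10 observations, since MIR3648-1 with MIR3648-2 and ENSG00000277437 with ENSG00000264063 are copies that share reads. The exception, ENSG00000283704, had a log2 fold change of -0.04 (FDR = 0.958). Most of their counts belonged to ENSG00000275110 (chrX:109054542-109054590, plus strand), whose precursor is shown with the 26 bases it shares with 28S ribosomal RNA in capitals, because it is the most abundant of them.
ENSG00000275110: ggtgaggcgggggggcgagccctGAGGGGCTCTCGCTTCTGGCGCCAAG
Its level was 22185, 21169 and 41320 CPM in A375 in DMSO and 128146, 95783 and 128883 CPM in A375-BIR in dabrafenib. The groups were separate, with a 4.17-fold rise (log2 fold change 2.06, SE 0.28, FDR = 3.79e-05). MIR3648-1 and MIR3648-2, which lie within copies of the 5 prime external transcribed spacer over all 180 bases, rose 7.11-fold and 7.13-fold (FDR = 3.71e-07 for both), from 299, 304 and 357 CPM to 2103, 1925 and 2832 CPM for MIR3648-1. MIR663A, which shares 87 of its 93 bases with the same spacer, went from 1054, 797 and 1114 CPM to 4670, 4181 and 3499 CPM (4.17-fold, FDR = 1.41e-06), and MIR663B rose 5.12-fold (FDR = 0.000697). The spacer precursors ENSG00000277437 and ENSG00000264063 were identical over 61 bases and each rose 3.20-fold (FDR = 1.22e-06). MIR7704 and MIR4508 had log2 fold changes of 1.73 and 1.47, the call of MIR4508 being lost with no filter (FDR = 0.0765) and without A375-BIR in dabrafenib replicate 1 (1.12, FDR = 0.0581), over FDRs of 0.00385 to 0.0765.

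As a share of all counts, the rRNA-like precursors held 3.49%, 3.22% and 5.59% in the A375 libraries in DMSO. They held 16.9%, 14.4% and 16.7% in A375-BIR in dabrafenib. No A375-BIR library came near the A375 range, and the Wilson 95% interval was at most 0.829 percentage points wide in any library of the series. These shares moved with the comparison, together with the lower totals of the A375-BIR libraries, and their part in the other results was not tested beyond leaving these precursors out, which gave 50 higher and 30 lower among 167 tested.

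**Figure D3:**
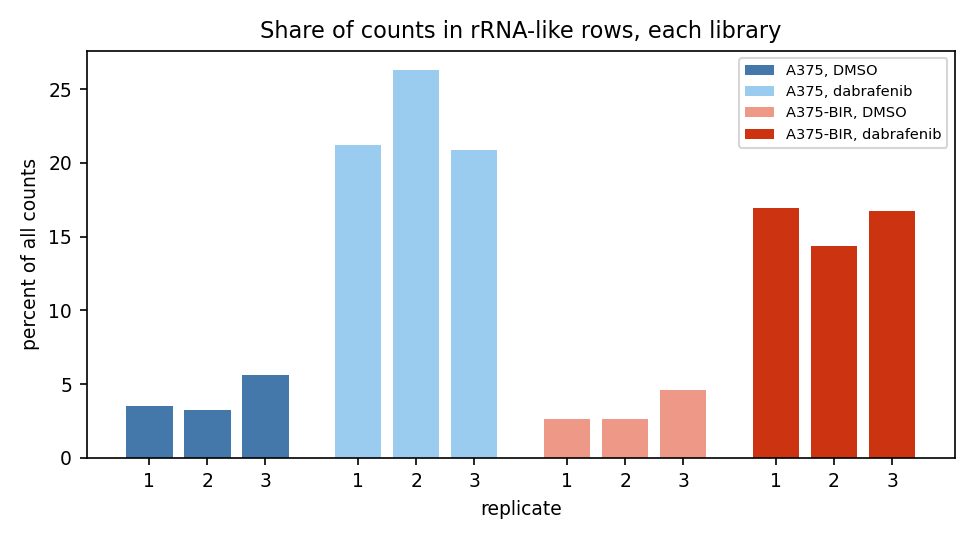
Percent of all counts in the 17 precursors with an unbroken match of 18 or more bases to 45S pre-ribosomal RNA, 1 bar per library, in the 4 groups. Both groups in dabrafenib lie above 14% and both groups in DMSO below 6%.

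The other 6 libraries form the crossed pair, A375-BIR in DMSO against A375 in dabrafenib, in which the lines differ in the same way and the treatments in the opposite way. It shares no library with the comparison above, though all 12 libraries share 1 fit and 1 set of TMM factors. In the crossed pair 48 precursors were higher (27.4%) and 54 lower (30.9%), 102 in all (58.3%). The number higher depended on the processing, at 78 with total counts alone, which moved the median of all precursors in this pair by 0.51. Of the 56 that rose in A375-BIR in dabrafenib over A375 in DMSO, 26 were also higher in the crossed pair, 16 were lower and 14 were not called. Of the 31 that fell, 20 were also lower, none was higher and 11 were not called. The log2 fold changes of the pairs had a Pearson r of 0.406 across the 175 precursors, which are not independent replicates.

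Same-direction calls numbered 46, which is 52.9% of the calls in A375-BIR in dabrafenib over A375 in DMSO and 45.1% of those in the crossed pair. For 35 of them the difference between the pairs was not itself called. Over all precursors that difference was called for 62 (35.4%), 41 higher (23.4%) and 21 lower (12%). Its median moved by -0.53 with total counts alone and by -0.29 with DESeq2 size factors. MIR146A had a log2 fold change of -3.88 here and -3.72 in the crossed pair, with a difference of -0.15 (FDR = 0.678). MIR30A had 2.38 and 2.28 (difference 0.10, FDR = 0.782), and MIR100 had 1.41 and 1.40 (FDR = 0.996).

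Other members kept their direction while the size differed. The lead of A375-BIR in MIR31 was 3.51 with the drug on A375-BIR and 5.59 with the drug on A375, a difference of -2.08 (FDR = 9.15e-05). MIR204 was lower in A375-BIR by log2 fold changes of -2.50 and -5.50, which differed by 3.00 (FDR = 0.000399). Its level was 5893, 8521 and 3888 CPM in A375 in dabrafenib and 163, 102 and 138 CPM in A375-BIR in DMSO. MIRLET7C had 2.26 and 1.17 (difference 1.09, FDR = 0.00143), MIR146B 2.86 and 1.53 (difference 1.33, FDR = 0.0188) and MIR222 1.38 and 2.51 (difference -1.13, FDR = 0.000677).

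No difference between the pairs was called for MIR3929 (FDR = 0.435), MIR622 (FDR = 0.418) or MIR1269A (FDR = 0.670). MIR3929 and MIR622 had no count in any library of A375 in dabrafenib, and against a floor of 3 counts over the group the crossed pair put MIR3929 at least 11.6-fold higher and MIR622 at least 6.56-fold higher. MIR1269A, with 3 counts in A375 in dabrafenib, was at 525, 455 and 380 CPM in A375-BIR in DMSO.

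For MIR584 and MIR30D the fall was seen in 1 of the pairs. MIR584 had a log2 fold change of -2.60 here and -0.29 in the crossed pair (FDR = 0.372), and the difference of -2.30 was called (FDR = 0.000267). MIR30D had -1.48 and 0.11, with a difference of -1.59 (FDR = 0.000583). MIR10A had 1.16 and -0.09, with a difference of 1.25 (FDR = 0.00229).

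The 16 precursors called in opposite directions were all higher in A375-BIR in dabrafenib and lower in the crossed pair. Among them 9 were rRNA-like, counting both members of each pair of copies, and without the rRNA-like precursors in the tests and library sizes the number of opposite calls was 8. MIR663A had log2 fold changes of 2.06 and -5.11, differing by 7.17 (FDR = 2.13e-10). ENSG00000275110 had 2.06 and -3.38, differing by 5.44 (FDR = 7.50e-08). All 10 tested rRNA-like precursors were lower in the crossed pair, beside 30.9% lower over all 175. As above, the 10 include pairs of copies, and some passed the filter through the groups in dabrafenib. The share of counts in rRNA-like precursors was 2.65%, 2.67% and 4.57% in A375-BIR in DMSO and 21.2%, 26.3% and 20.9% in A375 in dabrafenib. In both pairs, then, the group in dabrafenib had the larger share.

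The other 7 were MIR25, MIR612, MIR10B, MIR143, MIR3652, MIR4647 and MIR4449. MIR612 lies within NEAT1, the long RNA that builds nuclear paraspeckles, and was at 359, 304 and 442 CPM in A375 in DMSO and at 765, 737 and 566 CPM in A375-BIR in dabrafenib (log2 fold change 0.91, FDR = 0.0163). It was at 1851, 3781 and 2526 CPM in A375 in dabrafenib and at 217, 157 and 235 CPM in A375-BIR in DMSO, the reverse order, with a difference between the pairs of 4.64 (FDR = 4.24e-07). The call of MIR612 was lost without A375-BIR in dabrafenib replicate 2 (0.85, FDR = 0.0580), without A375 in DMSO replicate 2 (0.78, FDR = 0.0739), with either looser filter and with copies summed, over FDRs of 0.00494 to 0.0918. MIR3652, inside HSP90B1, had 1.5 and -2.60 (difference 4.10, FDR = 2.79e-06), and MIR10B had 0.95 and -1.44 (difference 2.39, FDR = 5.26e-06). The precursors of the opposite calls were rich in G and C, with a median of 75.0%, beside 50.0% for the 46 with calls in the same direction and 53.6% for all tested precursors; for the 7 that are not rRNA-like it was 63.1%. Calls of MIR25, MIR143 and MIR4647 depended on the processing, and MIR143 and MIR4647 overlapped between A375-BIR in dabrafenib and A375 in DMSO. The call of MIR25 (log2 fold change 0.68, FDR = 0.00866) was lost with DESeq2 size factors, the DESeq2 Wald test, either looser filter and copies summed, over FDRs of 0.00411 to 0.142. That in MIR143 (1.19, FDR = 0.0226) was lost with DESeq2 size factors, without A375-BIR in dabrafenib replicate 3 (0.88, FDR = 0.124) and without A375 in DMSO replicate 1 (0.86, FDR = 0.0759) or replicate 2 (1.0, FDR = 0.0959), and was 1.89 without replicate 3, over FDRs of 0.000637 to 0.124. MIR4647 (1.96, FDR = 0.0435) lost its call under 12 of 23 alternatives, among them DESeq2 size factors and leaving out A375-BIR in dabrafenib replicate 1 (1.16, FDR = 0.216) or any A375 library in DMSO, over FDRs of 0.00891 to 0.216. Apart from MIR10B, these 7 were named after their values were seen.

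**Figure D4:**
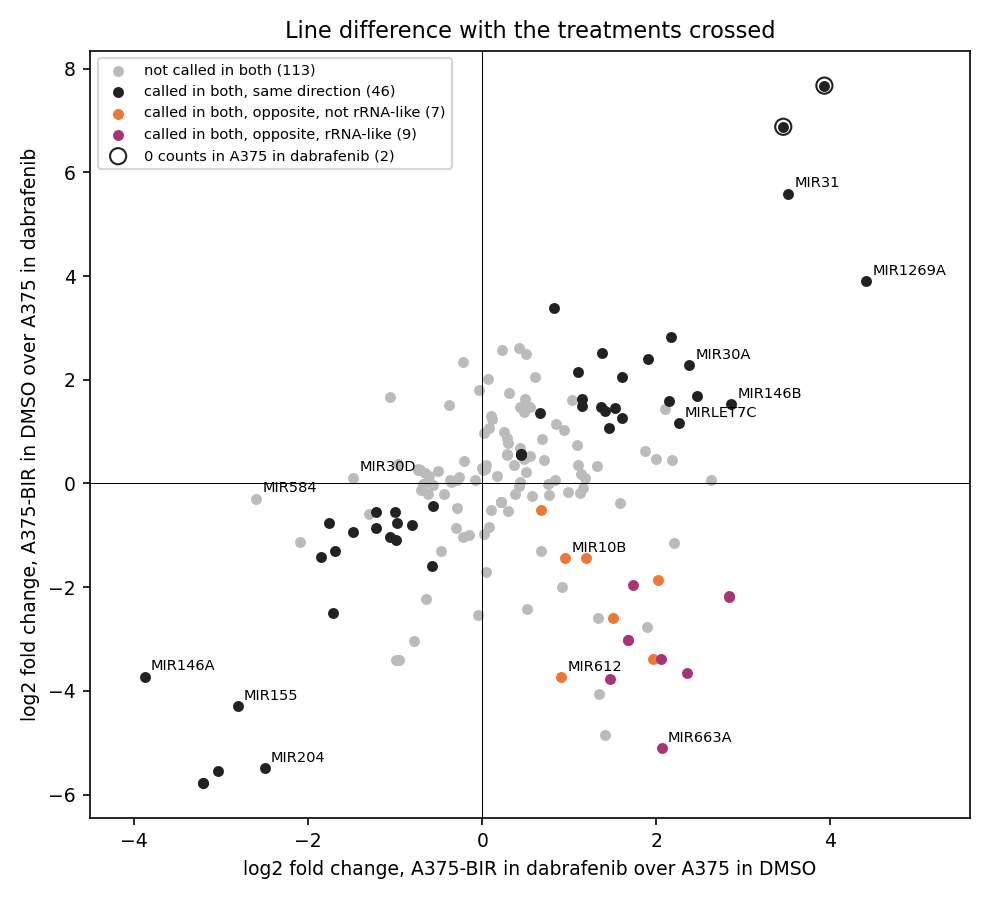
Log2 fold change of A375-BIR in dabrafenib over A375 in DMSO (horizontal) against that of A375-BIR in DMSO over A375 in dabrafenib (vertical) for the 175 tested precursors, coloured by whether both comparisons called them. The 46 same-direction precursors lie in the lower left and upper right, and the 16 opposite ones, 9 of them rRNA-like, lie in the lower right; the 2 ringed points have 0 counts in A375 in dabrafenib and their vertical position depends on the prior count.

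The path from A375 in DMSO to A375-BIR in dabrafenib can be divided at A375-BIR in DMSO, into a step between lines in vehicle and a step of drug within A375-BIR. These steps share libraries with the comparison and sum to it, so their values are given side by side and no overlap is counted. The step between lines had 81 calls (46.3%) and the drug step within A375-BIR had 36 (20.6%). MIR31 was at 10246, 10415 and 10034 CPM in A375-BIR in DMSO, above its level in either compared group. Its step between lines was 4.85 (FDR = 1.15e-10) and its drug step was -1.34 (FDR = 3.38e-05).

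MIR222 showed the same order, with steps of 1.84 (FDR = 1.10e-07) and -0.47 (FDR = 0.0314), and MIR221 had 1.14 (FDR = 0.000226) and -0.84 (FDR = 0.00661), which left its total at 0.31. For MIR584 both steps were downward, -1.56 (FDR = 3.15e-05) and -1.03 (FDR = 0.0209). MIR155 had a step between lines of -4.34 (FDR = 7.06e-07) and a drug step upward of 1.54 (FDR = 0.0395). MIR146A fell between lines by -4.44 (FDR = 1.21e-09), with a drug step of 0.56 that was not called (FDR = 0.0746). For MIR30A, MIRLET7C, MIR182, MIR210 and MIR1269A the drug step was between -0.28 and 0.12 and not called.

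The order was different for ENSG00000275110 and MIR10B. ENSG00000275110 was at 18081, 17528 and 30109 CPM in A375-BIR in DMSO, close to A375 in DMSO, with a step between lines of -0.37 (FDR = 0.269) and a drug step of 2.42 (FDR = 2.76e-05). The drug step was called higher for 9 of the 10 rRNA-like precursors, beside 20.6% called in either direction over all 175. As above, some of the 10 passed the filter through the groups in dabrafenib. MIR10B had steps of 0.06 (FDR = 0.825) and 0.89 (FDR = 0.00387). MIR27B had 0.42 (FDR = 0.132) and 0.71 (FDR = 0.0352).

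**Figure D5:**
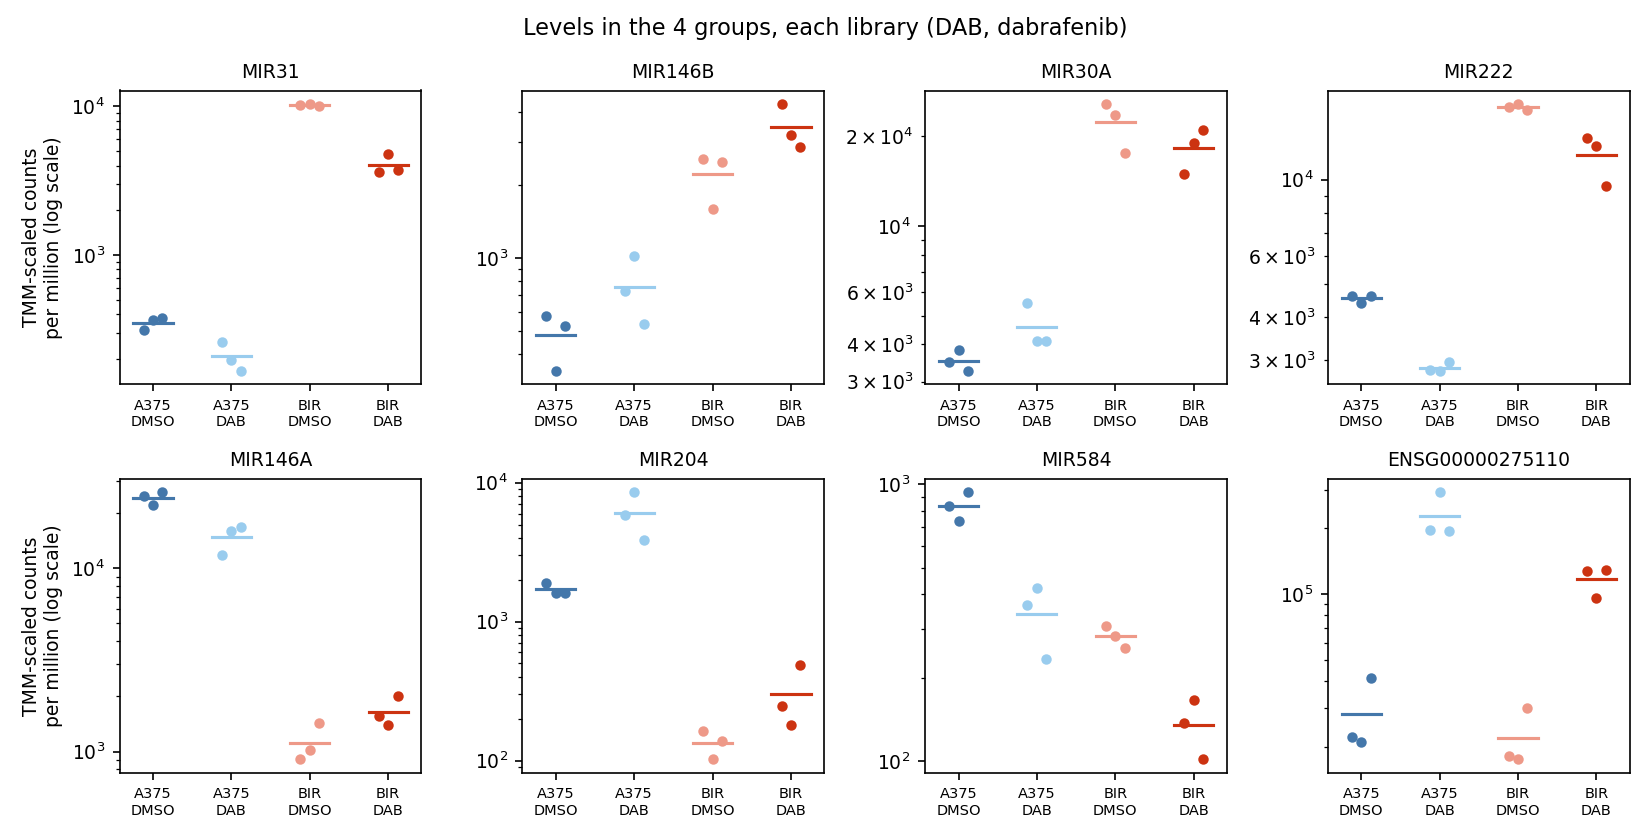
TMM-scaled CPM (log scale, different range in each panel) of 8 precursors in the 4 groups of the series, 1 point per library and a line at the mean of 3. MIR31 and MIR222 are highest in A375-BIR in DMSO, MIR146A is high in both A375 groups, and ENSG00000275110 is high in both dabrafenib groups.

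Below the expression filter, some precursors were counted in 1 group and in no library of the other. MIR873, inside LINGO2, had 11, 12.5 and 20 counts in the A375 libraries in DMSO and 0 in A375-BIR in dabrafenib, at least 7.13-fold lower against a floor of 3 counts over the group. MIR224, inside GABRE, had 4, 8 and 4 counts in A375-BIR in dabrafenib and none in A375 in DMSO, at least 10.9-fold higher. Of the X-linked cluster described above, MIR513C had 8, 3 and 3 counts in A375 and 0 in A375-BIR, at least 2.29-fold lower. MIR5187 (1, 7 and 4 counts) and MIR15A (4, 2 and 5 counts) were likewise seen in A375 in DMSO alone of these groups, at least 1.97-fold and at least 1.80-fold lower in A375-BIR. MIR1270, equal to MIR15A in total count and named after its values were seen, had 1, 7 and 3 counts in A375-BIR in dabrafenib and none in A375 in DMSO, at least 7.46-fold higher.

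Few markers of other cell types passed the filter. Of 5 blood cell markers 1 was tested: MIR150, at 47.9, 38.0 and 10.5 CPM in A375 in DMSO and at 164, 165 and 40.5 CPM in A375-BIR in dabrafenib, with a log2 fold change of 1.89 that was not called (FDR = 0.0556, from 0.0104 to 0.240 over all alternatives). Under 5 of 23 alternatives it was called higher. Among these were the 6-library fit with a replicate block (FDR = 0.0382) and leaving out A375-BIR in dabrafenib replicate 3 (2.30, FDR = 0.0221). The blood list summed to 59.9, 98.7 and 52.6 CPM against 191, 256 and 202 CPM, and MIR451A had no count in any library. The leading member of each list is the 1 with the most counts over all 12 libraries, MIR150 for blood. None of the 7 epithelial markers was tested; their sum was 47.9, 91.1 and 52.6 CPM against 81.9, 15 and 263 CPM, led by MIR205, with MIR429 and MIR203A at 0. The 6 muscle markers summed to 0, 0 and 73.6 CPM against 54.6, 0 and 20.2 CPM, led by MIR1-2, with MIR133B at 0. The sum of 0 in replicate 2 of each group stands for 1 count, divided between precursors and lost in rounding.

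The 6 neuron markers summed to 227, 251 and 179 CPM in A375 in DMSO and to 246, 226 and 364 CPM in A375-BIR in dabrafenib, led by MIR9-1, with MIR124-1, MIR124-2 and MIR124-3 at 0. The liver marker MIR122 was at 0 in every library. The endothelial marker MIR126 was at 23.9, 0 and 0 CPM against 54.6, 0 and 0 CPM. The part of these markers in the result was not tested. In bulk RNA, fewer cells of a type and less RNA per cell cannot be told apart.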

How the data were processed

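The submitters' processing notes name hg38, RSEM 1.2.25, R 4.0.2 and edgeR, and the deposited files hold RSEM expected counts per precursor. Counts were rounded, filtered with filterByExpr over the 4 groups, scaled by TMM and fitted with edgeR 4.0.16 (R 4.3.3) by quasi-likelihood over all 12 libraries, with 1 mean per line and treatment. P-values were adjusted by the Benjamini-Hochberg method over the 175 tested precursors, and a call is an FDR under 0.05. The common biological coefficient of variation was 21.6%. DESeq2 1.42.0 was the alternative. Positions and hosts are from GENCODE on hg38. Named miRNAs are the 12 highest and 12 lowest called fold changes without overlap, the 5 most abundant, the miR-181 family, up to 5 below the filter, up to 4 examples per list, up to 4 opposite calls and the rRNA-like precursors; others are marked in the text. Among the 12 highest and 12 lowest, the MIR3648 copies and the MIR509 copies each count once. The members and lists were chosen with earlier results of these data known. With 3 libraries against 3, an exact permutation test of 1 value could not pass 0.05, and none was run.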

Additional observations from a re-analysis of the deposited data

How the results depend on the processing

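Calls of A375-BIR in dabrafenib over A375 in DMSO were followed through the alternatives for 95 miRNAs, not all of them named in the report. Of these, 75 kept their call or its absence under each. Among those not named, MIR26B, MIR93 and MIR152 changed. Over 2174 values of this comparison 2073 kept the call or its absence, 80 lost a call, 21 gained one and none reversed. Leaving out 1 library at a time gave 45 to 64 higher and 27 to 36 lower in A375-BIR in dabrafenib, 39 to 49 higher and 47 to 55 lower in the crossed pair, 54 to 68 called in the difference, 40 to 46 same-direction and 13 to 17 opposite calls. With a replicate block the counts were 52 higher and 30 lower. A fit of the 6 libraries with that block, chosen after seeing the data, gave 51 and 30. With precursor copies summed (154 tested) the same comparison gave 41 higher and 32 lower. It gave 58 and 42 with a filter of 1 CPM, and 55 and 39 with no filter. Calls higher in the crossed pair went from 48 to 78 with total counts alone, where the cause was not tested, to 86 with a filter of 1 CPM (538 precursors tested) and to 79 with no filter (839 tested). Opposite calls went from 16 to 8 without the rRNA-like precursors, a set that holds 9 of the 16; the cause of the remaining shift was not tested. Depth limited the low end, with 3 counts over a group at 9.67 CPM in A375 in DMSO and 19.7 CPM in A375-BIR in dabrafenib.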
